A study of Mus musculus with 6 samples.

Results

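The endothelin family of the stellate ganglion was described by 6 genes: the ligands Edn1 and Edn3, the receptors Ednra and Ednrb, and the converting enzymes Ece1 and Ece2. All probe sets whose platform annotation gave a single symbol from this family were taken, which gave 13 probe sets for 5 of the 6 genes, out of 18193 genes with a single symbol on the array. The annotation used here named no such probe set for Ednra, the receptor to which endothelin 1 binds most strongly, and no value is given for it. The family was selected on values of these same arrays, since Edn3 was known to be lower after aortic constriction. All differences between groups within the family are therefore a description and carry no p-value.

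Gene expression was measured in stellate ganglia, the sympathetic ganglia that send most nerve fibres to the heart, on Affymetrix mouse genome arrays. There were 3 arrays from mice 8 weeks after transverse aortic constriction (TAC), which narrows the aorta and loads the left ventricle with pressure, and 3 arrays from mice 8 weeks after a sham operation. All animals were male C57/Bl6 mice, both ganglia of 1 animal went onto 1 array, and the letters A, B and C name the arrays of each group. The labels used here give no age and no measure of heart function. Values are log2 probe set intensities, and a mean under 4 over all 6 arrays was taken as dim, because no detection call was given. The arrays correlated at 0.980 to 0.994 over the 17550 probe sets above this floor. All 10 sympathetic neuron markers with a probe set lay above it, with Th, the rate-limiting enzyme of noradrenaline synthesis, at 13.77 to 13.88 on the TAC arrays and 13.55 to 13.66 on the sham arrays.

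Endothelins are short peptides first known as vasoconstrictors of the blood vessel wall. They are cut from larger precursors, first by furin-like proteases and then by the endothelin-converting enzymes, and act on a pair of receptors coupled to G proteins. In the mouse embryo, endothelin 3 and Ednrb are needed by the neural crest cells that form enteric neurons and melanocytes, and endothelin 3 made by arteries guides axons of the superior cervical ganglion, a neighbour of the stellate ganglion, through Ednra. In sensory ganglia Ednrb is found mainly on satellite glia, the cells that wrap the neuron bodies.

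By the brightest probe set of each gene, Edn3 and Ednrb had the largest differences in the family, both with a lower mean after TAC, so the sequence before their annotated start sites is shown. Each line gives the 250 bases upstream of 1 annotated start, from RefSeq on GRCm38.p6, 5′ to 3′ on the gene's strand. Capitals mark 2 motifs searched on both strands, the E-box CANNTG, read by basic helix-loop-helix factors, and CCAAT with its reverse complement ATTGG, read by the NF-Y complex.
Edn3, chr2:174760369-174760618, plus strand: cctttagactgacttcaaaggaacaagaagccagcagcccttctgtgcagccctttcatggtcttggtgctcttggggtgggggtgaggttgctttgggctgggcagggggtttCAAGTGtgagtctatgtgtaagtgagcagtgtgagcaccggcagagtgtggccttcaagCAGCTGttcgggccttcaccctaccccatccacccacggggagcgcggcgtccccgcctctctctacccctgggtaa
Ednrb, chr14:103843702-103843951, minus strand: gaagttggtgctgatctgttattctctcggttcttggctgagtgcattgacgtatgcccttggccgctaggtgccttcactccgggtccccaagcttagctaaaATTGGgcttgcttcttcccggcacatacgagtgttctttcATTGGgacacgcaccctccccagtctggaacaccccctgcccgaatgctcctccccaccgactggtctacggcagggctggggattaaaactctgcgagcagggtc

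The Edn3 window held 2 E-boxes and 0 CCAAT motifs, and the Ednrb window held 0 E-boxes and 2 CCAAT motifs. Of 32851 promoter windows of the same length, 66.2% held an E-box and 33.9% a CCAAT motif. The shorter cores ACAAT (SOX factors), GATAA (GATA factors), ACGTG (hypoxia element), GGGCGG (GC box) and TATAAA had 0 matches in both windows, against 27.7%, 22.6%, 16.6%, 32.7% and 12.4% of all windows. The Edn3 window was 59.2% G and C with 7 CpG, and the Ednrb window 56.8% with 11 CpG, against medians of 52.4% and 6 over all windows. The 2 windows thus shared none of the motifs searched, and these counts describe letters only.

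Edn3, the ligand that binds both receptors but prefers Ednrb, was lower after TAC in each of its 3 probe sets above the floor. In whole ganglia, fewer cells of a type and less RNA per cell cannot be told apart, which holds for all genes described here. The brightest, 1438696_at, measured 8.67, 8.37 and 8.55 on TAC A, B and C, against 9.14, 9.40 and 9.02 on sham A, B and C. The groups did not overlap, and 0.34 on the log2 scale separated the highest TAC array from the lowest sham array. The mean log2 level was 8.53 ± 0.15 in TAC and 9.18 ± 0.20 in sham ganglia (SD, n = 3 each). The TAC minus sham difference was -0.66 (SE 0.13), so that the TAC level was 63.5% of the sham level. With any 1 array left out it was -0.74 to -0.55.

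The second probe set of Edn3, 1441924_x_at, differed most. It measured 6.35, 6.11 and 6.33 on TAC A, B and C, against 7.00, 7.39 and 7.03 on sham A, B and C. Here 0.65 separated the groups, and the difference of -0.88 (SE 0.13) put TAC at 54.5% of sham. The third, 1441923_s_at, measured 5.75, 6.13 and 5.87 on the TAC arrays, against 6.15, 6.30 and 6.27 on the sham arrays. Its groups were separated by only 0.02, and its difference was -0.32 (SE 0.12). By Affymetrix's naming, the x and s suffixes mark probe sets with probes that may match other transcripts, so the 3 are not equally specific. The fourth, 1421136_at, was dim at 2.56 to 2.81 on all arrays and says nothing on the level of Edn3.

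The 2 brightest Edn3 probe sets kept the same order of arrays at their extremes, with TAC B lowest and sham B highest in both. The third did not follow them within the TAC group, where TAC B was its highest array. Among the 17550 tested probe sets, the differences of the 3 ranked 74th, 31st and 642nd from the lowest. Edn3 was chosen because it was low, so these ranks restate that choice. Ednrb 1437347_at, whose groups overlapped, ranked 63rd.

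**Figure D1:**
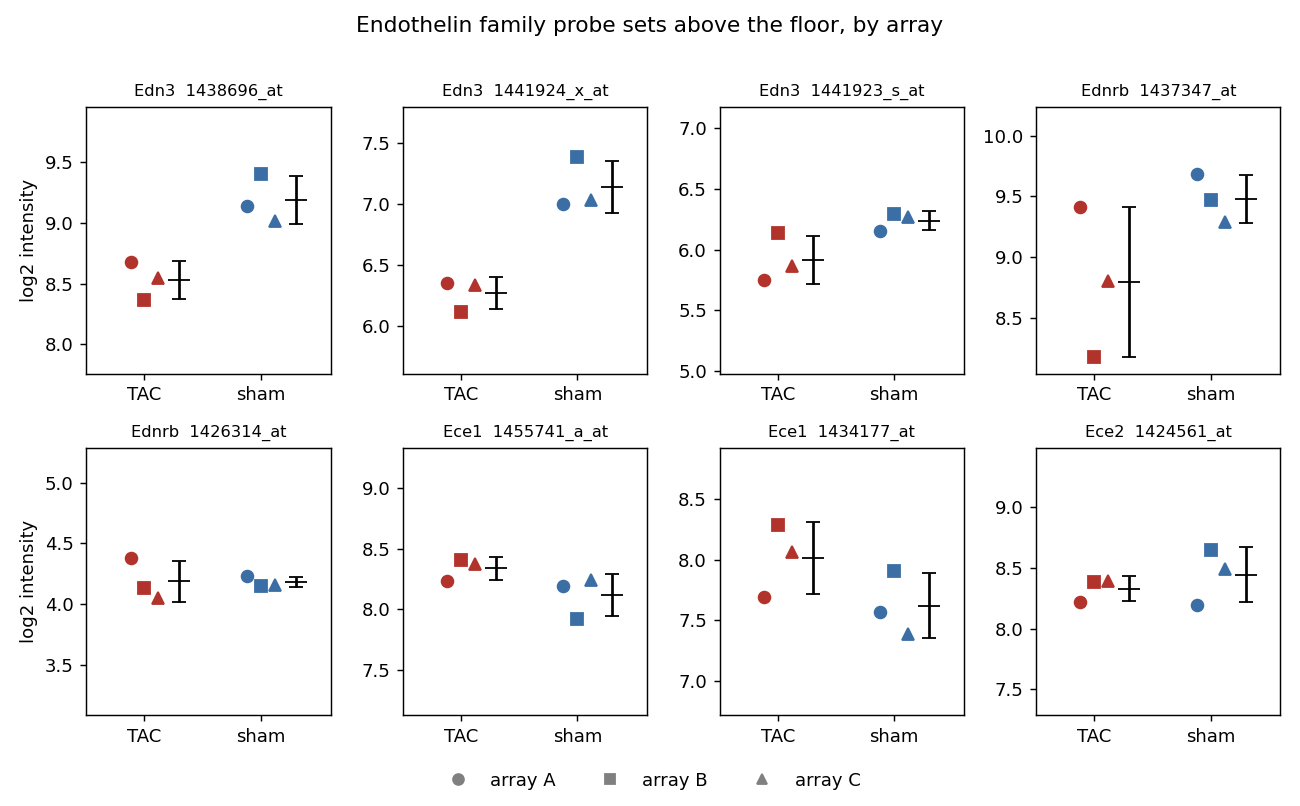
Log2 intensity (y axis, each panel spanning the same range) of the 8 endothelin family probe sets above the floor on the 3 TAC arrays (red, left) and the 3 sham arrays (blue, right). Marker shapes give the array letter, and black bars the mean ± SD. The groups are apart in the 3 Edn3 panels and overlap in the other 5, and the 3 TAC arrays of Ednrb 1437347_at spread over 1.23.

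Ednrb, the receptor for which all endothelins have similar affinity, was the member that varied most between animals. Its brightest probe set, 1437347_at, measured 9.41, 8.18 and 8.80 on TAC A, B and C, against 9.69, 9.47 and 9.29 on sham A, B and C. TAC B and TAC C lay below all sham arrays, while TAC A lay within the sham range, so the groups overlapped. The mean log2 level was 8.80 ± 0.62 in TAC and 9.48 ± 0.20 in sham ganglia (SD, n = 3 each). The difference of -0.69 (SE 0.30) was about as large as that of Edn3, with a wider error. It was -0.37 without TAC B and -0.99 without TAC A, so single TAC arrays decided its size. The SD within groups, pooled, was 0.46, larger than that of 96.4% of tested probe sets.

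The other Ednrb probe sets lay near or under the floor and did not show this difference. 1426314_at measured 4.38, 4.13 and 4.05 on the TAC arrays, against 4.23, 4.15 and 4.16 on the sham arrays, a difference of 0.01 (SE 0.10). 1423594_a_at was dim, at 3.29 to 3.31 on the TAC arrays and 3.34 to 3.64 on the sham arrays. The lower mean of Ednrb thus rests on 1 of its 3 probe sets.

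Markers of satellite glia were set beside Ednrb array by array. Of the 8 markers above the floor, 6 were below the sham mean on TAC B, against 3 of 8 on TAC A and 3 of 8 on TAC C. On TAC B the glial fatty acid binding protein Fabp7 lay 0.82 below its sham mean, the calcium-binding protein S100b 0.69 below and the potassium channel Kcnj10 0.59 below, where Ednrb lay 1.31 below. On the same array Glul, the glutamine synthetase of glia, lay 0.57 above its sham mean and the cadherin Cdh19 lay 0.36 above. On TAC C, Ednrb lay 0.68 below its sham mean while Fabp7 was 0.19 below, S100b 0.04 below and Kcnj10 0.06 above. Sox10, the transcription factor of peripheral glia, and Erbb3, the neuregulin receptor, stayed within 0.23 of their sham means on all 3 TAC arrays. Over the list, the summed linear intensity was 22068 to 28431 on the TAC arrays and 28337 to 30704 on the sham arrays. Fabp7, the brightest of the markers, weighs most in this sum. It measured 13.11 to 13.76 on the TAC arrays and 13.80 to 14.08 on the sham arrays. Of the 8 markers, 4 had a higher and 4 a lower mean in TAC, and the median difference was -0.04. The limma test gave 0 calls among them, as it gave 0 among all 17550 tested probe sets. An unadjusted p under 0.05 was found for 0 of the 8, against 9.08% of all. With 8 genes a count of 0 is near that share, so nothing is read from it. Slc1a3 and Gfap, also in the list, were under the floor. The part of the glia in the Ednrb values was not tested.

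**Figure D2:**
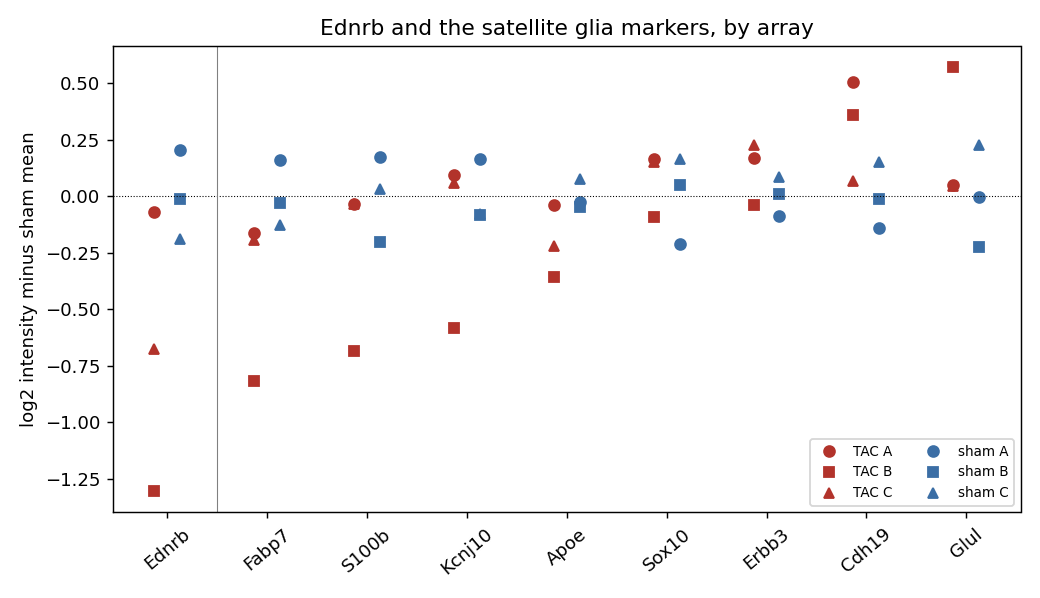
Log2 intensity minus the mean of the 3 sham arrays (y axis) for Ednrb 1437347_at, left of the line, and for the 8 satellite glia markers above the floor, ordered by their value on TAC B. Red symbols are TAC arrays and blue symbols sham arrays. TAC B (red square) is lowest for Ednrb at -1.31 and also lowest for Fabp7, S100b, Kcnj10 and Apoe, and it is highest for Glul.

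Edn1, the vascular endothelin, gave no usable level. Its only probe set, 1451924_a_at, was dim at 2.56 on each TAC array and at 2.29, 2.60 and 2.61 on sham A, B and C. Its difference of 0.06 (SE 0.10) lay among values where the method has no resolution. Of 10 endothelial markers with a probe set, 5 were under the same floor, among them Pecam1, Cdh5 and Kdr. The 5 above the floor summed to 271 to 398 on the TAC arrays and 270 to 307 on the sham arrays. Of these, 4 had a higher and 1 a lower mean in TAC, with a median difference of 0.33. Limma called 0 of the 5, as it called 0 of all tested probe sets. Edn2, the third ligand of the family in the mouse and not among the genes chosen here, was dim as well.

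Ece1, the main converting enzyme of the endothelin precursors, had slightly higher means after TAC in both probe sets above the floor. The brightest, 1455741_a_at, measured 8.23, 8.41 and 8.37 on TAC A, B and C, against 8.20, 7.92 and 8.24 on sham A, B and C. TAC A lay just below sham C, so the groups overlapped. Means were 8.34 ± 0.09 in TAC and 8.12 ± 0.18 in sham (SD, n = 3 each), a difference of 0.22 (SE 0.11). The difference was 0.12 without sham B, the lowest array.

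The other bright Ece1 probe set, 1434177_at, measured 7.70, 8.29 and 8.06 on the TAC arrays, against 7.57, 7.91 and 7.39 on the sham arrays, a difference of 0.39 (SE 0.19) with overlapping groups. The 2 did not order the sham arrays alike: sham B was the lowest in the first and the highest in the second. A further probe set, 1441423_at, was dim at 2.35 to 2.40. All 6 markers of mural cells, the muscle and pericyte layer of vessels, that lay above the floor also had a higher mean in TAC. Their median difference was 0.35, and their sum was 3629 to 4792 on the TAC arrays and 3294 to 3339 on the sham arrays. Mcam, at 0.38, and Rgs5, at 0.29, were the brightest and weigh most in this sum. Acta2 differed by 0.07, and Pdgfrb by 0.60 with sham B low at 6.59. Limma called 0 of the 6, as it called 0 of all tested probe sets. An unadjusted p under 0.05 was found for 1 of them, against 9.08% of all. Myh11, Des, Cnn1, Notch3 and Kcnj8 were under the floor. The part of vessel cells in the Ece1 values was not tested.

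Among the members above the floor, each by its brightest probe set, Ece2 differed least. Ece2 is a converting enzyme with an acidic optimum that is found in neural tissue. 1424561_at measured 8.21, 8.38 and 8.39 on TAC A, B and C, against 8.20, 8.64 and 8.49 on sham A, B and C. All TAC arrays lay within the sham range, and the difference of -0.11 (SE 0.13) was smaller than the pooled SD of 0.18. It ranged from -0.24 without sham A to -0.01 without sham B. The second probe set, 1423358_at, was dim, at 3.57 to 3.58 on the TAC arrays and 3.61 to 3.94 on the sham arrays.

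Over the family, 5 of 8 probe sets above the floor had a lower and 3 a higher mean in TAC. The groups did not overlap, with TAC lower, for 3 of the 8, all of Edn3, and this held for 8.85% of all tested probe sets. They did not overlap with TAC higher for 0 of the 8, against 9.02% of all. Limma called 0 of the 8 at an adjusted p under 0.05, as it called 0 of all 17550 (0.0%), and 3 of the 8 had an unadjusted p under 0.05, against 9.08% of all. Because the contrast chose the family and the 3 probe sets read 1 gene, nothing is read from these counts. The 5 dim probe sets lay between 2.29 and 3.94 with differences of -0.15 to 0.06. The groups of 2 of them did not overlap, both lower in TAC. The share of all dim probe sets without overlap was not counted, so nothing is read from these 2. Of all dim probe sets, 87.0% had a lower mean in TAC.

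**Figure D3:**
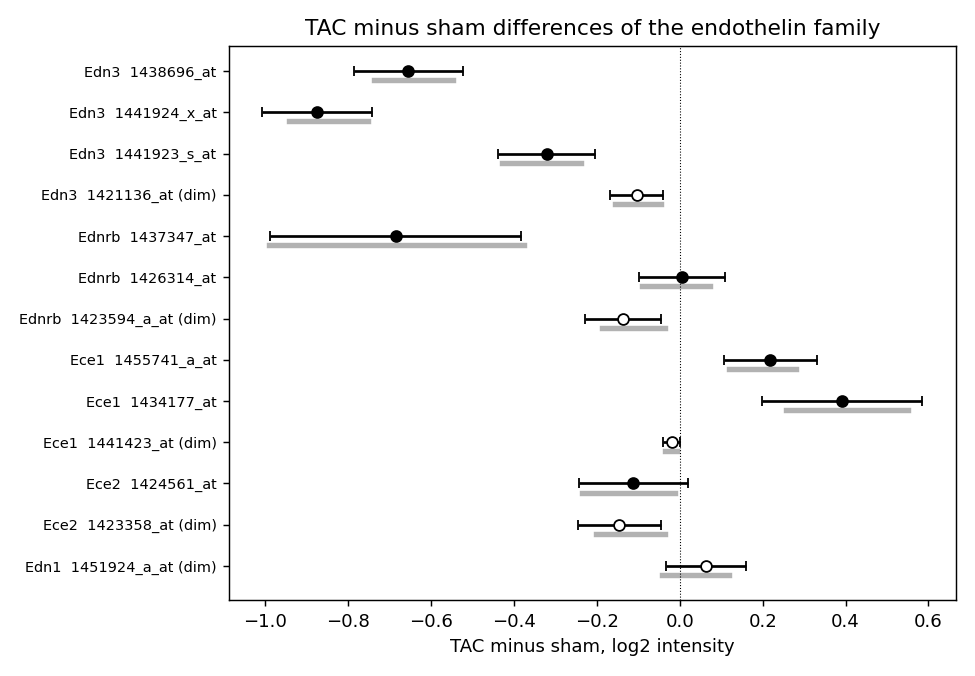
TAC minus sham difference in log2 intensity (x axis) for all 13 probe sets of the family. Points are differences of group means with limma's standard error, open where the probe set is dim, and grey bars span the differences with any 1 array left out. The 3 bright Edn3 probe sets lie at -0.88 to -0.32 and the 2 bright Ece1 probe sets at 0.22 and 0.39.

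The other genes of the pathway showed no change that passed the test. Of 74 genes listed by role, 67 had a probe set and 48 lay above the floor. Limma called 0 of the 48, and the smallest adjusted p was 0.542. At an unadjusted p under 0.05 there were 2, or 4.17%, against 9.08% of all tested probe sets, and the median difference was 0.04, against 0.02 over all genes.

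Among 21 genes of receptor coupling, 10 had a higher and 11 a lower mean in TAC. Rgs2, a regulator that shortens signalling through the G protein Gq, measured 8.73, 9.09 and 8.82 on TAC A, B and C, against 9.57, 9.09 and 9.30 on sham A, B and C. All TAC values lay below the sham values, though TAC B and sham B were almost equal, with a difference of -0.44 (SE 0.15, limma adjusted p = 0.542). Its 2 other probe sets were at -0.21 and -0.18. Plcb1, the phospholipase C that Gq activates, averaged 6.16 ± 0.10 in TAC and 5.92 ± 0.12 in sham (SD, n = 3 each), at 0.24 (SE 0.10, limma adjusted p = 0.548). Next by p were Rgs5, a regulator typical of pericytes, at 0.29 and the Gq family subunit Gna11 at -0.17.

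Among the genes of peptide supply and breakdown, 6 of 13 lay above the floor, 4 with a higher and 2 with a lower mean. Ecel1, a relative of the converting enzymes that is induced in injured neurons of rats and mice, differed by 0.34 (SE 0.17) and the proprotein convertase Pcsk7 by 0.31 (SE 0.17). The matrix protease Mmp2 was at -0.27 and Furin, which makes the first cut of the endothelin precursors, at -0.07. The endothelin-degrading protease Mme was under the floor.

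Of 9 regulators of endothelin genes, 7 had a higher mean, and the 4 of smallest p were Sp1 at 0.30, the hypoxia factor Hif1a at 0.28, Nos3 at 0.14 and Gata2 at 0.16. Nos3 lay at the floor, with 3.87 to 4.29 on the TAC arrays and 3.89 to 3.98 on the sham arrays. Of 8 neural crest partners of Edn3 and Ednrb, 4 were higher and 4 lower, with Zeb2 at -0.25, Ret at -0.22, Mitf at 0.17 and Erbb3 at 0.12. Of 4 genes of the axon cue list, 3 were lower, with Gfra3 at -0.40, the guidance receptor Nrp1 at -0.25, Ngfr at -0.12 and Ntrk3 at 0.22. Limma called none of these, and the smallest adjusted p among them was that of Sp1, at 0.553.

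**Figure D4:**
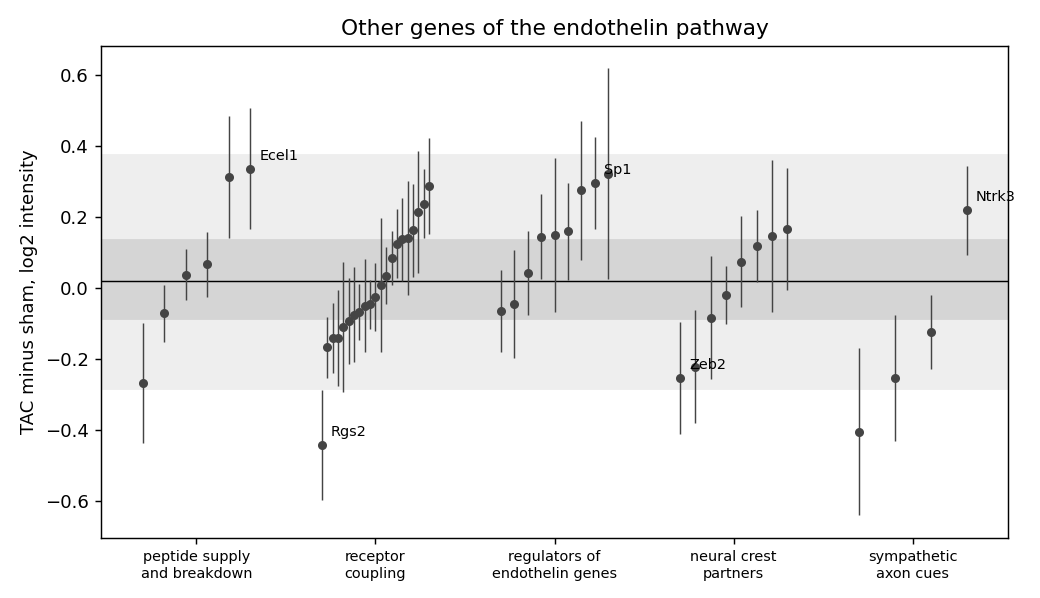
TAC minus sham difference in log2 intensity (y axis) of the pathway genes above the floor in 5 lists, sorted within each list, with limma's standard error as bars. The dark band holds the middle of all genes (-0.09 to 0.14), the light band reaches from -0.28 to 0.37, and the gene of smallest p in each list is named. Rgs2 at -0.44 and Gfra3 at -0.40 lie lowest.

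The genes whose pattern over the 6 arrays was most like that of each member were named by Pearson correlation of log2 values over 9951 genes, as a description. For Edn3 these were Cdk14, a cyclin-dependent kinase, at r = 0.9925, Cacna2d3, an auxiliary subunit of calcium channels, at 0.9891, Dipk1a at 0.9836, Esyt1, a tether between endoplasmic reticulum and plasma membrane, at 0.9831 and Rabep1, an endosomal protein, at 0.9818. Cdk14 measured 10.93, 10.82 and 10.91 on the TAC arrays, against 11.15, 11.32 and 11.10 on the sham arrays, a difference of -0.30. All 5 had smaller differences than Edn3, at -0.30 to -0.22. In all, 170 genes reached a correlation above 0.9 with Edn3.

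For Ednrb the closest were Mmd2 at 0.9942, Pcyox1 at 0.9861, the basement membrane protein Nid2 at 0.9860, the glutamate receptor subunit Gria1 at 0.9860 and Sema3c, a secreted axon guidance protein, at 0.9854. Like Ednrb, Nid2 was lowest on TAC B, at 4.31, with 5.80 on TAC A and 5.15 on TAC C, against 6.11, 5.66 and 5.47 on sham A, B and C. For Ece1 they were Plpp5, Rbak, Pkib, Memo1 and Rgs7bp, at 0.9977 to 0.9846. For Ece2 they were Txn2, Hpcal1, Pgs1, Mrpl14 and Hspb1, at 0.9934 to 0.9791. Correlations above 0.9 were reached by 260 genes for Ednrb, 229 for Ece1 and 62 for Ece2, and all values share the same 6 arrays.

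Of the markers of other cell types, those of sympathetic neurons summed to 95690 to 100607 on the TAC arrays and 82718 to 91315 on the sham arrays. Of the 10, 6 had a higher and 4 a lower mean in TAC with a median difference of 0.02, and Npy, at 0.77, differed most. Npy was among the brightest of them and weighs heavily in the linear sum. It measured 14.38 to 14.65 on the TAC arrays and 13.61 to 13.87 on the sham arrays. Limma called 0 of the 10, and 3 had an unadjusted p under 0.05, all higher, against 9.08% of all tested probe sets. The fibroblast list had 6 of 7 measured members with a lower mean in TAC and a median difference of -0.36. Its sum was 7314 to 10082 on the TAC arrays and 8316 to 8684 on the sham arrays. The exception, Dcn, was its brightest member, at 12.22 to 12.49 on the TAC arrays and 12.07 to 12.19 on the sham arrays. Among the 6, only Fmod, near the floor, had groups that did not overlap. Limma called 0 of the 7, and 3 had an unadjusted p under 0.05, 1 higher and 2 lower. Melanocyte-specific genes, of interest because Ednrb marks that lineage, were under the floor for 5 of 7 markers, including Dct, Tyr and Pmel. The 5 skeletal muscle markers above the floor all had a lower mean in TAC, but the sham arrays were not alike. These markers summed to 763 on sham A and 1404 on sham C, against 53.0 on sham B and 69.4 to 263 on the TAC arrays. Fat markers were highest on TAC B, summing to 5038, and on sham C, summing to 7950, against at most 2141 elsewhere, and without these 2 arrays the Edn3 difference was -0.66 and that of Ednrb -0.47. The part of these cell types in the values of the family was not tested.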

How the data were processed

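The authors deposited a table of linear probe set intensity values. Per the submitters' processing notes these come from GCRMA; its version is not given in the sources used here. GCRMA corrects for background, normalizes between arrays and compresses values near background. The table held 45101 probe sets, 64 of them controls. Values were log2-transformed with no pseudocount. Probe sets with a mean under 4 were left out of the tests (27487), which left 17550. Symbols came from GEO's platform annotation, where 34958 probe sets had 1 symbol, 932 several and 9211 were not listed, and were matched by gene identifier to the RefSeq table of GRCm38.p6. Where a gene had several probe sets, the brightest stood for it.

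TAC and sham were compared over the whole table with limma 3.58.1 in R 4.3.3 (lmFit, eBayes, two-sided, Benjamini-Hochberg adjustment, threshold 0.05). The procedure was also run on simulated data, drawn as independent normal values. These held no effects shared by an array and no admixture of other tissues, so they check the code and not its fit to these arrays. Standard errors are limma's moderated ones, and those of dim probe sets come from a fit with no floor. With 3 animals against 3, the smallest exact permutation p is 0.1, so the array number sets the precision. The members and gene lists were chosen with earlier results of these data known. Genes named from the pathway lists are up to 4 of smallest p per list, with Mme, and those named from the marker lists were chosen to bear on a member. Figures were drawn with matplotlib 3.10.9.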

Additional observations from a re-analysis of the deposited data

How the results depend on the processing

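The Edn3 difference was below 0 in all 16 alternatives, at -0.74 to -0.55. They covered the floor (none, or 6), the variance model, array weights, quantile normalization, median centring, a pseudocount of 16, the mean of all tested probe sets, the title letter, each array left out and sham C and TAC B left out. The floors, the variance model and the letter cannot change a difference of group means, for Edn3 or any other member. Leaving arrays out cannot turn the sign of Edn3 either, since its groups do not overlap. The common sign was thus partly fixed in advance. Ednrb ranged from -0.99 to -0.34, its smallest size with the mean of its tested probe sets, Ece1 from 0.12 to 0.31 and Ece2 from -0.24 to -0.01, each with 1 sign throughout. Edn1 was dim and had a value only with no floor, and the sign of its difference changed when single arrays were left out (-0.04 to 0.12). Limma called 0 member probe sets and 0 pathway genes in each alternative; the pathway count was not run with the mean of all probe sets. Over all probe sets the count was 0 except with 1 array left out, where it was 0 to 1 (Mir670hg without TAC B and Sst without TAC C). With the letter as a replicate block the Edn3 difference was -0.66 and the calls numbered 0, with 1426 probe sets at an unadjusted p under 0.05, against 1594 without it. No pairing by letter was visible. Deviations from the group means correlated at 0.08, 0.00 and -0.17 for the arrays lettered A, B and C, and at -0.13 to 0.14 between unlike letters. With 3 arrays a group, these values cannot exclude that animals were paired. With 3 animals a group and 5 of 13 probe sets under the floor, no statement can be made on the level of Edn1, and that on Ednrb rests on 1 probe set.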
